A study of Sus scrofa with 4 samples.

Results

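Langerhans cells are the antigen-presenting leukocytes that live among the keratinocytes of the epidermis. They load peptides on MHC class II molecules, pairs of an alpha and a beta chain that in the pig are encoded by the SLA genes, and the class II chains are escorted through the cell by the invariant chain CD74. They are recognised by the lectin langerin, encoded by CD207, and they depend on the receptor CSF1R, whose ligands IL34 and CSF1 are made in the skin. In a sort of epidermal cells, the transcripts of these genes can be read as a trace of immune cells. Which cells gave them here was not tested.

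The genes described here are 10 of the 29837 named genes in the table of counts, taken by name: CD207, CD74, SLA-DRA, SLA-DQA1, SLA-DQB1, CSF1R, PTPRC, LAPTM5, TYROBP and CD83. They were read in 4 RNA-seq libraries from juvenile pigs that carry H2B-GFP, a GFP joined to a histone, knocked into 1 allele of LGR5, so that GFP marks cells in which the LGR5 promoter is active. Epidermis and hair were separated from the dermis with dispase, dissociated with trypsin, stained with propidium iodide and sorted on GFP. The LGR5-high (GFP-hi) and LGR5-negative (GFP-neg) cells of pigs 88R and 95R gave 1 library each, so each population has n = 2 pigs and each pig contributed to both. Both populations come from the same knock-in animals, a line founded by nuclear transfer from clonal fibroblasts, and the methods describe no step that removes or selects leukocytes.

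Named genes held between 30696803 and 32463362 counts per library, and 3 counts, taken as the smallest measurable signal, corresponded to between 0.0872 and 0.105 CPM, the count relative to library size after scaling by edgeR's TMM factors. LGR5 itself had 132 and 188 CPM in LGR5-high of pigs 88R and 95R, against 1.26 and 3.61 CPM in LGR5-negative, in the direction the labels of the sort give. The basal keratin gene KRT5 had between 23650 and 29540 CPM in every library and the epithelial factor TP63 between 556 and 658 CPM. The keratin genes KRT1 and KRT10 were lower in LGR5-high, with log2 fold changes of -3.56 and -3.44. KRT1 had 2634 and 2285 CPM in LGR5-high of pigs 88R and 95R, against 31250 and 26740 CPM in LGR5-negative. KRT10, which the study uses as a marker of differentiated interfollicular epidermis, had 2770 and 2556 CPM against 31030 and 26580 CPM. Of the 15980 genes tested with edgeR, 22.0% were lower and 22.7% higher in LGR5-high past the threshold, an adjusted p-value of 0.05. The higher genes made up 50.9% of the calls, or 70.2% when libraries were scaled by size only, which moved the median over the log2 fold changes of these genes from 0.02 to 0.24.

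The 10 genes were low in LGR5-high and many-fold higher in LGR5-negative. Their summed level was 20.9 and 16.8 CPM in LGR5-high of pigs 88R and 95R, against 240 and 350 CPM in LGR5-negative. The quasi-likelihood test of edgeR, with adjustment over all tested genes, called each of the 10 lower in LGR5-high, beside 22.0% of all tested genes. The median of their log2 fold changes was -3.96. Both LGR5-negative libraries lay above both LGR5-high libraries for all 10, beside 37.4% of tested genes. CD207, PTPRC and TYROBP passed the filter on low counts only through the LGR5-negative libraries, so a lower level in LGR5-high was built into their being tested. The other 7 had at least 10 counts in every library. When only such genes were tested, these 7 were called lower, beside 22.0% of the 14105 genes that met this limit, with a median log2 fold change of -3.96. In bulk libraries, fewer cells of a type and less RNA per cell cannot be told apart, and this holds for every level below.

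**Figure D1:**
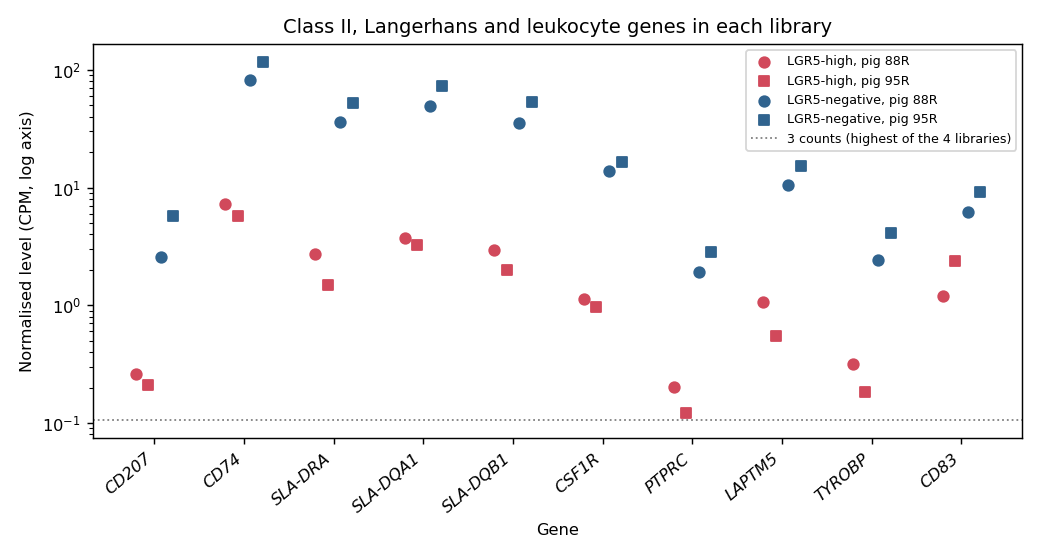
Normalised level (CPM, log axis) of each of the 10 genes in the 4 libraries, with circles for pig 88R, squares for pig 95R, red for LGR5-high and blue for LGR5-negative. The dotted line is 3 counts in the library where they are worth most, 0.105 CPM. In each of the 10 genes both blue points lie above both red points, and in LGR5-high of pig 95R PTPRC lies just above the line.

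Langerin is the protein from which Langerhans cells build their Birbeck granules, and its gene is the most specific to these cells among the 10. In LGR5-high, CD207 had 9 counts in pig 88R and 7 in pig 95R, against 74 and 172 in LGR5-negative, or 0.262 and 0.212 CPM against 2.60 and 5.69 CPM. The LGR5-high counts were few but above 3 in both pigs, and the LGR5-negative library of pig 95R held by far the most. On the log2 scale the difference was -4.11, with a standard error of 0.525 and an edgeR adjusted p of 0.00207. CD207 passed the filter only through LGR5-negative, so its being lower was built into the test. Without the LGR5-negative library of pig 95R the log2 difference was -3.44, so that 1 library moved the fold by more than 1.5 times.

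CD74, the invariant chain, blocks the peptide groove of new class II molecules until they reach the endosome. It had 7.27 and 5.69 CPM in LGR5-high of pigs 88R and 95R and 81.8 and 117 CPM in LGR5-negative, with a log2 fold change of -3.94 (standard error 0.227, adjusted p = 1.60e-04). The spread within a population was small beside the distance between them, with means of 6.48 ± 1.12 CPM (SD, n = 2) and 99.4 ± 24.9 CPM.

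SLA-DRA encodes the alpha chain of the DR molecule. Its level was 2.73 and 1.48 CPM in LGR5-high and 36.2 and 52.6 CPM in LGR5-negative, pig 88R first. Its log2 fold change of -4.39 (standard error 0.333, adjusted p = 3.46e-04) was the most negative of the 10 and stood at rank 22 of the 15980 tested genes when these were ordered from the most negative. SLA-DQA1 and SLA-DQB1 encode both chains of the DQ molecule, and they are direct neighbours on the chromosome in the RefSeq annotation, with SLA-DRB1 before them. SLA-DQA1 had 3.75 and 3.24 CPM in LGR5-high and 49.6 and 72.8 CPM in LGR5-negative. SLA-DQB1 had 2.94 and 2.0 CPM against 35.2 and 53.6 CPM. The log2 fold changes of this chain pair were -4.13 (standard error 0.232, adjusted p = 1.49e-04) and -4.17 (standard error 0.292, adjusted p = 2.69e-04), closer to each other than either standard error. The class II chains differ between haplotypes and have near copies in the pig genome, and how reads shared between copies were counted is not given in the sources used here, so their levels are less certain than those of CD74.

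The leukocyte genes were also lower in LGR5-high. CSF1R, the receptor kinase through which IL34 and CSF1 keep Langerhans cells and macrophages alive, had 1.13 and 0.968 CPM in LGR5-high of pigs 88R and 95R and 13.8 and 16.6 CPM in LGR5-negative. The 2 pigs were close within each population, with a log2 fold change of -3.85 (standard error 0.212, adjusted p = 1.41e-04). LAPTM5, a lysosomal membrane protein of blood-derived cells, had 1.08 and 0.545 CPM against 10.5 and 15.4 CPM (log2 fold change -3.99, standard error 0.376, adjusted p = 7.07e-04).

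PTPRC encodes CD45, the phosphatase on the surface of nearly all leukocytes. It had 7 and 4 counts in LGR5-high and 55 and 86 counts in LGR5-negative, pig 88R first, with a log2 fold change of -3.84 (standard error 0.451, adjusted p = 0.0015). TYROBP encodes DAP12, an adaptor that carries signals from receptors of myeloid and NK cells, and had 11 and 6 counts against 69 and 125, with a log2 fold change of -3.68 (standard error 0.468, adjusted p = 0.00203). For both genes the LGR5-high counts were near the smallest measurable signal, and the LGR5-negative counts of pig 95R were the highest. PTPRC and TYROBP passed the filter only through LGR5-negative, so their being lower was built into the test.

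CD83, a surface protein of activated dendritic cells that keeps class II molecules at the cell surface, stood apart from the other 9. Its level was 1.19 and 2.36 CPM in LGR5-high of pigs 88R and 95R and 6.24 and 9.23 CPM in LGR5-negative. The populations did not overlap, but the distance was smaller, with a log2 fold change of -2.12 (standard error 0.388, adjusted p = 0.00753). It stood at rank 511 of the tested genes, while the other 9 stood between ranks 22 and 67.

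Each pig gave both populations, so the LGR5-high level could be set against the LGR5-negative level of the same animal. In pig 88R it was between 7.55% (SLA-DRA) and 19.1% (CD83) of the LGR5-negative level, with a median of 9.48% over the 10 genes. In pig 95R the range was from 2.82% (SLA-DRA) to 25.6% (CD83), with a median of 4.32%. For CD74, the gene with the most counts, the share was 8.88% in pig 88R (95% exact counting interval 7.77% to 10.1%) and 4.86% in pig 95R (4.18% to 5.63%). These intervals did not overlap, and they cover counting error only. For CD207, CSF1R, PTPRC and TYROBP the intervals of both pigs overlapped. CD83 was the only 1 of the 10 whose share was higher in pig 95R, at 25.6% (19.6% to 33%) against 19.1% (13.3% to 26.9%), with intervals that overlapped.

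**Figure D2:**
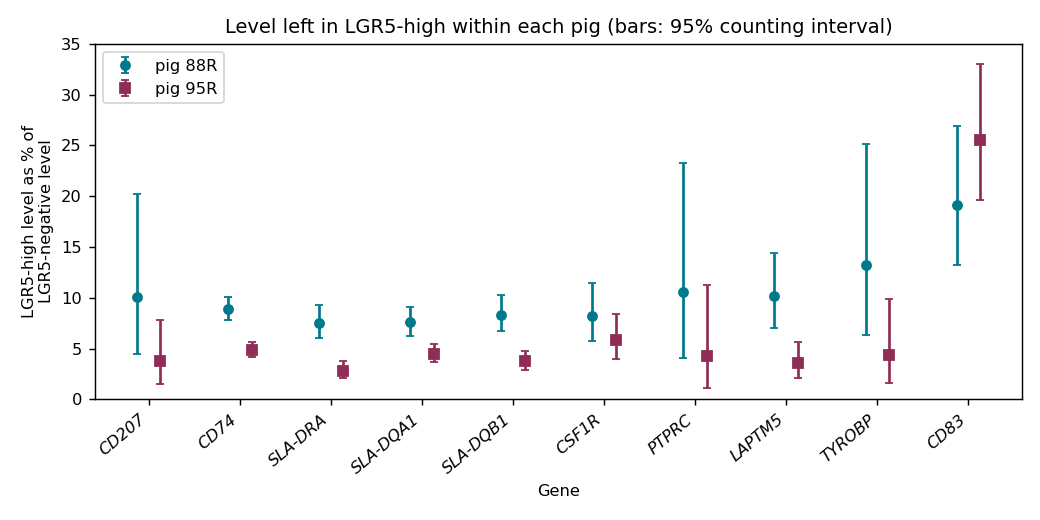
Level in LGR5-high as a percentage of the level in LGR5-negative of the same pig, for each of the 10 genes, with 95% exact counting intervals. Circles are pig 88R and squares pig 95R. Except for CD83, each gene lies lower in pig 95R than in pig 88R, and CD83 lies highest in both.

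The difference between the pigs came from both populations. In LGR5-negative, all 10 genes were higher in pig 95R than in pig 88R, between 1.20-fold (CSF1R) and 2.19-fold (CD207) with a median of 1.47-fold. In LGR5-high, 9 of the 10 were lower in pig 95R, with a median of 0.731-fold, and CD83 was 1.98-fold higher. Over all tested genes the median was 1.01-fold in LGR5-negative and 1.00-fold in LGR5-high. With 1 library per pig and population this difference between animals has no replicate and was not tested. When the edgeR fit held the animal as a replicate block, all 10 genes were called lower, beside 27.2% of all tested genes.

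Set against CD74 in the same library, most of the genes had counting intervals that overlapped between the populations. SLA-DQA1 had 51.6% and 56.9% of the CD74 count in LGR5-high of pigs 88R and 95R and 60.6% and 62.2% in LGR5-negative. SLA-DQB1 had 40.4% and 35.1% against 43.0% and 45.8%. CSF1R had 15.6% and 17.0% against 16.9% and 14.2%, and CD207 had 3.60% and 3.72% against 3.17% and 4.86%. In SLA-DQA1, SLA-DQB1, CSF1R and CD207 the counting intervals of the LGR5-high libraries overlapped those of LGR5-negative. The CD207 interval in LGR5-high of pig 88R was wide, from 1.63% to 6.95%, so an overlap does not show equal proportions. SLA-DRA, SLA-DQA1 and SLA-DQB1 each had a lower share in LGR5-high than in LGR5-negative in both pigs. SLA-DRA was at 37.6% in LGR5-high of pig 88R, 44.2% and 44.9% in LGR5-negative, and 26.1% (18.6% to 35.9%) in LGR5-high of pig 95R, where its interval lay below both LGR5-negative intervals. CD83 differed most. It had 7.63% and 7.89% of the CD74 count in LGR5-negative of pigs 88R and 95R, 16.4% (11.5% to 22.9%) in LGR5-high of pig 88R and 41.5% (31.4% to 54.3%) in LGR5-high of pig 95R.

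**Figure D3:**
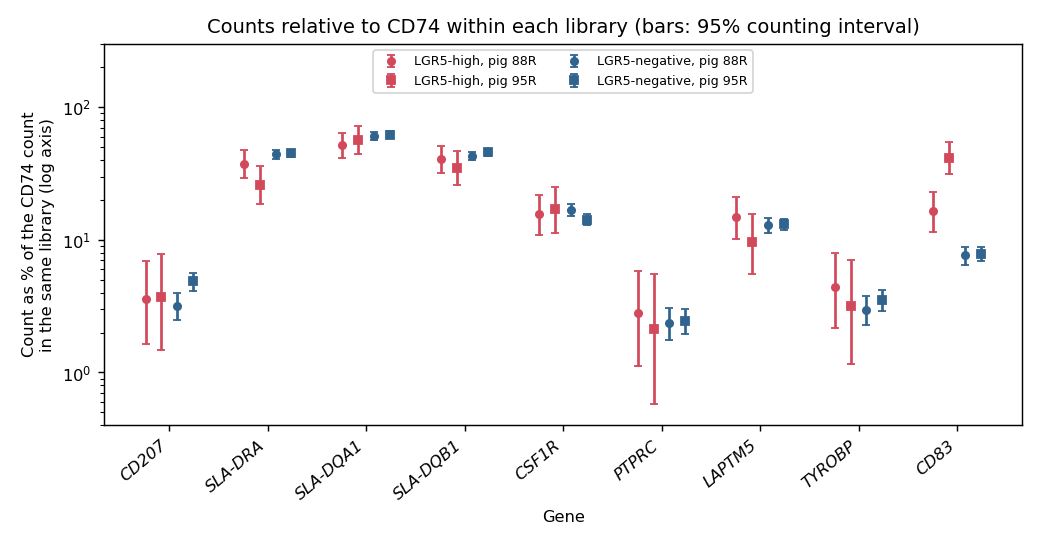
Count of each gene as a percentage of the CD74 count in the same library (log axis), with 95% exact counting intervals, for the 4 libraries. The SLA-DRA point of LGR5-high in pig 95R lies below those of LGR5-negative, with intervals that do not overlap, and for CD83 both red LGR5-high points lie above the blue LGR5-negative points, which are at 7.63% and 7.89%.

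Other class II chain genes were read from a list of 17 names, of which 5 were in the table and 4 passed the filter. SLA-DRB1, the partner chain of SLA-DRA, had 1.37 and 0.726 CPM in LGR5-high of pigs 88R and 95R and 20.1 and 17.4 CPM in LGR5-negative (log2 fold change -4.16, adjusted p = 3.03e-04). SLA-DMA and SLA-DMB, whose product exchanges peptides on class II molecules, were lower with log2 fold changes of -2.85 and -2.81 (adjusted p = 0.00466 and 8.22e-04), and that of SLA-DMA was -3.47 without the LGR5-high library of pig 88R. Both overlap BRD2 in the RefSeq annotation, and the strand setting of the counting is not given in the sources used here. SLA-DOB, a chain of the DO molecule that restrains DM, went the other way. It had 64 and 138 counts in LGR5-high of pigs 88R and 95R, against 7 and 25 counts in LGR5-negative, with a log2 fold change of 2.47 (adjusted p = 0.0261). Without the LGR5-high library of pig 95R this was 1.79 (adjusted p = 0.138), and the call was lost. It was 1.85 and 3.59 without the LGR5-negative library of pig 88R and of pig 95R. SLA-DOB passed the filter on low counts only through LGR5-high. Its partner SLA-DOA had 3 and 2 counts in LGR5-high and 2 and 20 in LGR5-negative and did not pass the filter on low counts.

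The regulators and processing enzymes of class II moved less. Of 14 tested genes, 5 were lower, 1 was higher and 8 did not pass, beside 22.0% lower and 22.7% higher of all tested genes. The median log2 fold change of the 14 was -0.13. With the replicate block, 6 were lower and 2 higher, the added calls being RFXAP (-0.26, adjusted p = 0.0305) and RFX5 (0.43, adjusted p = 0.0107), subunits of the RFX complex that binds class II promoters. Without the block the 1 higher gene was NFYB, at 0.40 (adjusted p = 0.0234), named after its values were seen. NFYB is a subunit of the factor NF-Y, which also acts at many other promoters. Its call was lost with each library left out in turn. CIITA, the transactivator that switches class II genes on, had 23 and 24 counts in LGR5-high and 57 and 50 in LGR5-negative (log2 fold change -1.38, adjusted p = 0.0165), and it lost its call without either LGR5-high library or without the LGR5-negative library of pig 88R (adjusted p between 0.0687 and 0.0992). CIITA overlaps DEXI in the RefSeq annotation. CTSS, the protease that trims CD74, had a log2 fold change of -1.30 (adjusted p = 0.0127), and without the LGR5-high library of pig 88R or 95R the adjusted p was 0.0526 or 0.0787. IFI30, a reductase of the endosome, had -1.24 (adjusted p = 0.00143). MARCH1, the ligase that removes class II from the surface, passed the filter only through LGR5-negative and had 8 and 9 counts in LGR5-high and 21 and 29 in LGR5-negative (log2 fold change -1.74, adjusted p = 0.0194). Its adjusted p was between 0.1 and 0.128 without the LGR5-negative library of pig 95R or either LGR5-high library, and 0.0968 with DESeq2.

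MHC class I molecules, which nearly all cells carry, were lower in LGR5-high as well, by less. Of 16 class I presentation genes tested, 11 were lower and 5 did not pass, beside 22.0% lower of all tested genes. The median log2 fold change of the 16 was -1.09. With the replicate block 14 were lower, the added genes being SLA-7, SLA-8 and TAP2 (adjusted p = 0.0406, 0.0023 and 0.00693). SLA-2 had 116 and 191 CPM in LGR5-high of pigs 88R and 95R and 672 and 716 CPM in LGR5-negative (log2 fold change -2.18, adjusted p = 0.00112). SLA-5 had a log2 fold change of -2.34 (adjusted p = 0.00129), and PSMB8, a subunit of the immunoproteasome, one of -1.83 (adjusted p = 0.00148). SLA-1 had -1.88 (adjusted p = 0.025), and without the LGR5-high library of pig 88R or the LGR5-negative library of pig 95R its adjusted p was 0.0645 or 0.0508, while its log2 fold change was -2.63 without the LGR5-high library of pig 95R. B2M, the light chain of every class I molecule, was named after its values were seen and had -1.53 (standard error 0.0808, adjusted p = 1.25e-04).

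**Figure D4:**
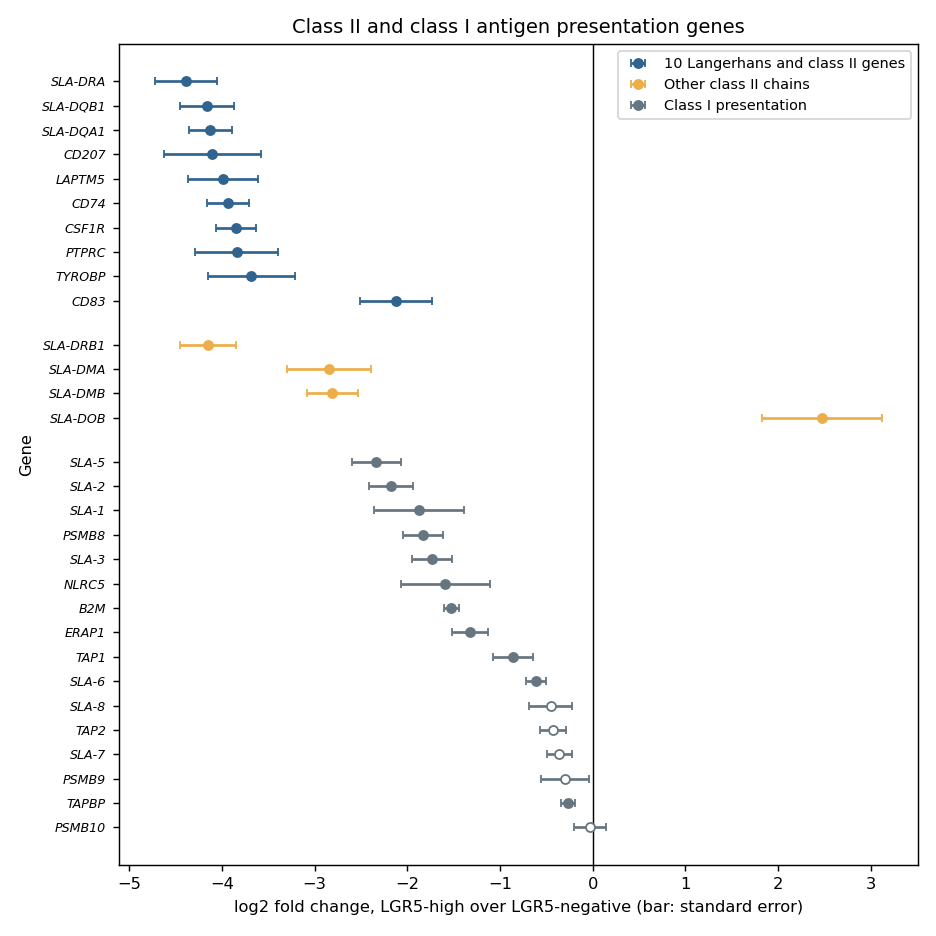
Log2 fold change of LGR5-high over LGR5-negative with its standard error for the 10 genes (blue), other class II chains (yellow) and class I presentation genes (grey). Filled points have an adjusted p-value under 0.05. Except for CD83, the blue points lie between -4.39 and -3.68, SLA-DOB lies at 2.47, and the 16 grey points run from -2.34 (SLA-5) to -0.03 (PSMB10).

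Further genes of Langerhans and dendritic cells were read from a list of 28 names, of which 16 were tested. Of these 10 were lower, 1 was higher and 5 did not pass, beside 22.0% lower and 22.7% higher of all tested genes. With the replicate block CD40 and XCR1 were also lower (adjusted p = 0.00295 and 0.00839). Of the 10 lower genes, 3 (FLT3, CD1.1 and CD86) had under 10 counts in at least 1 LGR5-high library and passed the filter only through LGR5-negative, so their being lower was built into the test. Of the 12 genes that reached 10 counts in all libraries, 7 were lower, with a median log2 fold change of -1.01 over the 12. CD1.1, of the CD1 family that presents lipids, had 12 and 7 counts in LGR5-high of pigs 88R and 95R, against 117 and 219 counts in LGR5-negative (log2 fold change -4.32, adjusted p = 0.001). FLT3, the receptor for the growth factor of dendritic cells, had 2 and 0 counts in LGR5-high and 18 and 36 in LGR5-negative, too few in LGR5-high for a fold. The co-stimulatory gene CD86 had 4 and 4 counts against 34 and 47 (log2 fold change -3.49, adjusted p = 0.00197). IRF4, a factor of dendritic cell function that melanocytes also use, had a log2 fold change of -3.41 (adjusted p = 7.39e-04). SPI1 and RUNX3, factors that Langerhans cells need to form, were named after their values were seen and had -2.58 (adjusted p = 2.90e-04) and -2.49 (adjusted p = 0.00138). The 1 higher gene, again named after its values were seen, was EPCAM, an adhesion molecule that Langerhans cells share with epithelia, at 0.54 (adjusted p = 0.0131), or 0.46 (adjusted p = 0.0848) without the LGR5-high library of pig 88R. The genes CD1E, CLEC10A and CLEC9A had 0 counts in all 4 libraries.

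Among other pan-leukocyte genes, 20 were tested, of which 15 were lower, 2 were higher and 3 did not pass. Over all tested genes, 22.0% were lower and 22.7% higher. Of the 15 lower genes, 11 passed the filter only through LGR5-negative, all 4 named here among them, so their being lower was built into the test. Of the 8 genes that reached 10 counts in all libraries, 4 were lower, with a median log2 fold change of -0.70 over the 8. The surface proteins CD53 and CD52 had 6 and 7 and 8 and 8 counts in LGR5-high, against 59 and 129 and 68 and 142 in LGR5-negative, pig 88R first. Their log2 fold changes were -4.01 and -3.88 (adjusted p = 0.00214 and 0.00183), and that of CD53 was -3.41 without the LGR5-negative library of pig 95R. VAV1 and IKZF1, which act inside blood cells, had 0 and 3 and 0 and 2 counts in LGR5-high against 26 and 33 and 10 and 24 in LGR5-negative. Of the partners and downstream signals of TYROBP, 7 were tested, of which 5 were lower and 2 did not pass. LYN, INPP5D and FCER1G passed the filter only through LGR5-negative. LYN, a kinase that acts on such adaptors, had a log2 fold change of -2.93 (adjusted p = 0.00271), and the phosphatase gene INPP5D one of -2.55 (adjusted p = 0.00623). FCER1G, an adaptor of the same kind as TYROBP, had 6 and 2 counts in LGR5-high and 24 and 57 in LGR5-negative, with -3.49 (adjusted p = 0.00934), and without the LGR5-high library of pig 95R its adjusted p was 0.0624. Its log2 fold change was -4.41 without the LGR5-high library of pig 88R and -2.80 without the LGR5-negative library of pig 95R. HCST, the neighbour of TYROBP on the chromosome, had -1.89 (adjusted p = 0.00361), and it overlaps NFKBID in the RefSeq annotation.

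Several markers that define other immune cells were near 0, while other genes of their lists were not. The T cell genes CD3D, CD3E and CD3G had at most 4 counts in any library, and 18 of the 20 T and NK cell genes in the table had at most 10. MS4A1 of B cells had 0 counts in all libraries, but CD79A had between 67 and 139 and JCHAIN between 38 and 58, and of 4 such genes tested 1 was lower, 1 was higher and 2 did not pass. CPA3 of mast cells had at most 1 count. MS4A2, a chain of the IgE receptor of mast cells and basophils, had 5 and 5 counts in LGR5-high and 27 and 47 in LGR5-negative (log2 fold change -3.05, adjusted p = 0.00451), and GATA2 had 6 and 4 against 16 and 16 (log2 fold change -1.85, adjusted p = 0.0246). Both passed the filter only through LGR5-negative, and GATA2 was not called with DESeq2 (adjusted p = 0.161). The macrophage genes C1QA and MARCO had at most 4 and 1, and CD163 between 3 and 12. CD14, a receptor for bacterial lipopolysaccharide on monocytes and macrophages, had 112 and 114 counts in LGR5-high of pigs 88R and 95R, against 196 and 356 counts in LGR5-negative (log2 fold change -1.48, adjusted p = 0.0104). The CD14 call was lost when either LGR5-high library was left out. CD68 had 46 and 35 counts in LGR5-high against 34 and 95 in LGR5-negative (log2 fold change -0.86, adjusted p = 0.215). JCHAIN and CD68 were named after their values were seen. Of 6 macrophage genes tested, 3 were lower, 1 was higher and 2 did not pass. Over all tested genes, 22.0% were lower and 22.7% higher. Of the 3 lower macrophage genes, 2 passed the filter only through LGR5-negative. The summed levels of the macrophage list were 11.8 and 13.2 CPM in LGR5-high of pigs 88R and 95R and 12.1 and 18.7 CPM in LGR5-negative. These sums overlapped between the populations, but the 1 higher gene, AIF1, weighed heavily in them. AIF1 alone gave 6.25 and 8.26 CPM of the LGR5-high sums and 1.47 and 1.79 CPM of the LGR5-negative sums.

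Most markers of non-immune cells were lower in LGR5-high as well, beside 22.0% of all tested genes. Of 7 melanocyte genes, 5 were lower in LGR5-high and 2 did not pass (with the replicate block, DCT was lower and MITF higher, adjusted p = 0.0267 and 0.0411), with summed levels of 62.5 and 62.6 CPM in LGR5-high and 85.0 and 261 CPM in LGR5-negative of pigs 88R and 95R. TYRP1, an enzyme of melanin synthesis, had a log2 fold change of -4.55 (adjusted p = 0.00705), which was -3.11 without the LGR5-negative library of pig 95R and -5.26 without that of pig 88R. Of 5 endothelial genes tested, 4 were lower and 1, PECAM1, passed only with the replicate block (adjusted p = 0.00215), with summed levels of 6.25 to 7.47 CPM against 21.0 to 21.4 CPM over the list. CDH5, the cadherin that defines endothelium, had 1 and 1 counts in LGR5-high and 17 and 21 in LGR5-negative, and 2 of the 4 lower endothelial genes passed the filter only through LGR5-negative. Of 5 dermal fibroblast genes tested, 4 were lower and 1, COL1A1, was higher. Their summed levels of 231 and 448 CPM in LGR5-high overlapped those of 346 and 224 CPM in LGR5-negative. COL1A1 alone gave 142 and 331 CPM of the LGR5-high sums and 94.0 and 37.2 CPM of the LGR5-negative sums. Of the 4 lower fibroblast genes, 2 passed the filter only through LGR5-negative. COL3A1 had a log2 fold change of -3.09 (adjusted p = 0.00597), which was -2.08 without the LGR5-negative library of pig 88R and -3.69 without that of pig 95R. COL1A1 had one of 1.85 (adjusted p = 0.0374), which was 2.66 without the LGR5-negative library of pig 88R, 1.12 (adjusted p = 0.174) without the LGR5-high library of pig 95R and 1.32 (adjusted p = 0.0607) without the LGR5-negative one, and had an adjusted p of 0.0671 with DESeq2. The part of these cells in the levels of the 10 genes was not tested.

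**Figure D5:**
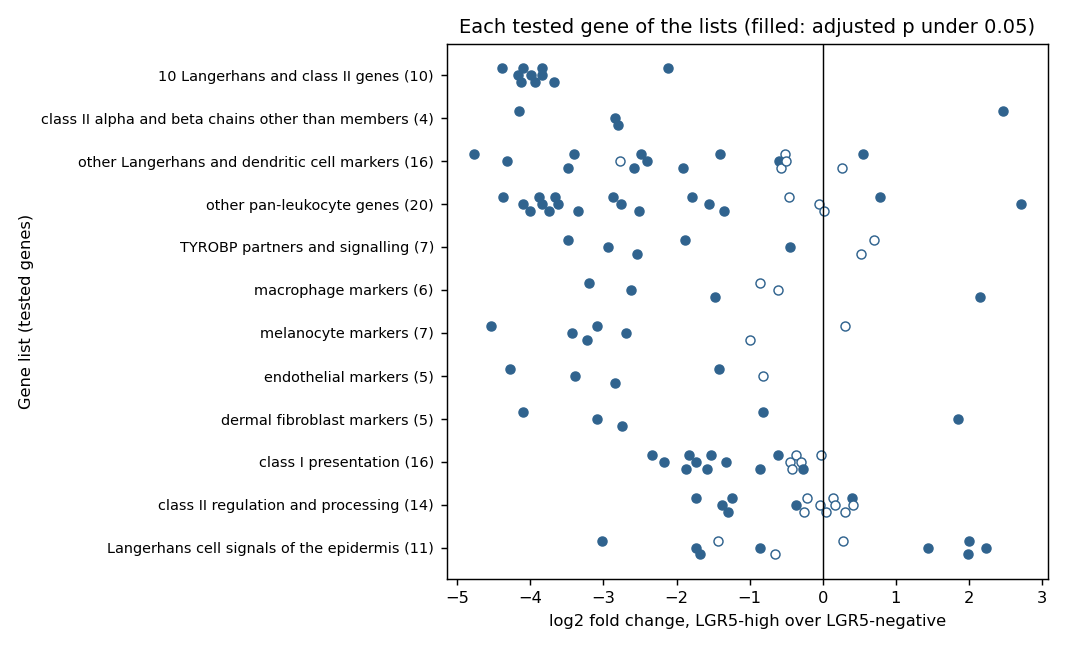
Log2 fold change of LGR5-high over LGR5-negative for each tested gene of the lists, with the number of tested genes in parentheses. Filled points have an adjusted p-value under 0.05. The 10 genes described here are clustered near -4 with CD83 at -2.12, and the leukocyte, melanocyte and endothelial lists lie mostly to the left of 0.

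The genes whose pattern over the 4 libraries lay nearest to that of CD207 and of CD74 were sought, leaving out the 10 genes themselves, among 13653 tested genes with a mean of at least 1 CPM, by the Euclidean distance between centred log2 CPM profiles. Nearest to CD207 were CD52 (distance 0.307), CD53 (0.354), GPR183 (0.354), CD1.1 (0.459) and CCL21 (0.489). CD207 itself, CD52, CD53, CD1.1 and CCL21 passed the filter on low counts only through LGR5-negative. For them a low level in LGR5-high was built into the search. Nearest to CD74 were CSF2RB (0.287), CD1.1 (0.291), VIM (0.306), GPR183 (0.344) and CCL28 (0.358). GPR183, a receptor that guides dendritic cells and lymphocytes, had 33 counts in both LGR5-high libraries and 330 and 602 in LGR5-negative of pigs 88R and 95R. CSF2RB, the shared beta chain of cytokine receptors, had 11 and 11 against 136 and 201. Not all of these genes belong to leukocytes, since CCL28 is a chemokine of epithelia and VIM the filament of mesenchymal cells, melanocytes and leukocytes alike. With 4 libraries such a likeness rests on few values.

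Signals by which the epidermis attracts and keeps Langerhans cells differed in both directions. Of 11 tested, 4 were lower, 4 were higher and 3 did not pass, beside 22.0% lower and 22.7% higher of all tested genes. Of the 3, TSLP and IL1A were lower with the replicate block (adjusted p = 0.0252 and 0.032). CCL20, the chemokine that draws cells with the receptor CCR6, had 2.68 and 4.24 CPM in LGR5-high of pigs 88R and 95R and 18.9 and 36.9 CPM in LGR5-negative (log2 fold change -3.02, adjusted p = 0.00219). CXCL14, a chemokine of epithelia, had 1959 and 2379 CPM against 582 and 500 CPM (log2 fold change 2.0, adjusted p = 2.50e-04). TGFB2 and TGFB3, of the TGF-beta family, had log2 fold changes of 1.98 and 2.23 (adjusted p = 4.43e-04 and 0.00203). TGFB1 of the same family, named after its values were seen, had 1.445 (adjusted p = 0.00481). The ligands of CSF1R were named after their values were seen. IL34 had 15.1 and 14.4 CPM in LGR5-high and 58.0 and 40.7 CPM in LGR5-negative (log2 fold change -1.74, adjusted p = 0.0011), and CSF1 had 30.5 and 28.9 CPM against 101 and 88.7 CPM (log2 fold change -1.68, adjusted p = 1.85e-04). The receptor and both of its ligands were lower in LGR5-high.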

How the data were processed

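Poly(A) RNA of LGR5-high and LGR5-negative cells from 2 pigs was sequenced. The values deposited by the authors are raw counts, 1 per gene symbol and library. The submitters' processing notes name Trimmomatic 0.36, STAR 2.5.2b and featureCounts of Subread 1.5.2. The genome build, annotation and strand setting are not given in the sources used here. All 29837 symbols matched RefSeq names (Sscrofa11.1, from which only names and neighbours were taken), and an entry without a name (112153 to 193429 counts per library) was left out.

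Counts were tested in R 4.3.3 with edgeR 4.0.16 (filterByExpr with a minimum count of 10 and total of 15, TMM, quasi-likelihood test, population as the only term, Benjamini-Hochberg over all 15980 tested genes, threshold 0.05). Standard errors are the log2 fold change divided by the root of the F statistic. Levels are CPM with TMM factors. Within-pig ratios have exact binomial intervals at 95% that cover counting error only. The functions were tested on simulated data. Plots used matplotlib 3.10.9.

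The 10 genes and the lists were chosen with earlier results of these data known. From each list, the called genes with the largest differences (up to 4) and defining markers at 0 were named, unless stated otherwise, and some of them are given only in the lists' counts. A gene of the macrophage list is not reported here. Likeness used the 5 nearest genes outside the 10 with a mean of at least 1 CPM and a prior count of 2. Samples were paired by animal (correlation of same-pig deviations over tested genes 0.370). With 2 libraries a group, an exact permutation test cannot go below p = 0.333, so none was made. Alternatives were other scalings, other filters, the replicate block, DESeq2 1.42.0, Student's t-test, which the study's methods name, here on log2(CPM + 1), and each library left out in turn.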

Additional observations from a re-analysis of the deposited data

How the results depend on the processing

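All 10 genes kept their direction under each alternative that could be run on them. All 10 were called lower with the DESeq2 size factors, beside 22.1% of all tested genes, and with library size only, beside 14.6%. The same held with all genes with at least 1 count, beside 14.8%, and with DESeq2, beside 21.2%. With each library left out in turn, the median log2 fold change of the 10 lay between -4.255 and -3.682. With at least 10 counts in every library, 7 could be tested and 7 were called, beside 22.0% of the genes tested. The replicate block called 10, beside 27.2% of all tested genes, and changed none of their calls. Its adjusted p-values lay between 8.49e-13 for SLA-DQA1 and 1.65e-06 for PTPRC. CD207, PTPRC and TYROBP passed the main filter only through LGR5-negative. Their calls under that filter were built into the test and do not bear on how stable the result is. With Benjamini-Hochberg adjustment, Student's t-test called 1 of the 10, CSF1R (adjusted p = 0.0461), lower, beside 3.14% of all tested genes. Of the 10, 9 had an unadjusted p under 0.05. The adjusted p of the 9 not called lay between 0.0557 and 0.128. The cause was not tested. The log2 fold change of CD207 lay between -4.57 and -3.44 with each library left out and that of CD83 between -2.69 and -1.72. Over all genes, 3632 were higher and 3508 lower. The replicate block gave 4562 and 4342. Library size only gave 5473 and 2328, the t-test 544 and 502, and the libraries left out in turn between 2279 and 3169 higher and between 2139 and 3004 lower genes. At this depth, the LGR5-high values of CD207, PTPRC and TYROBP rest on 4 to 11 counts.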

Other observations

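Several genes named for leukocytes were higher in LGR5-high, against the direction of the 10 genes. AIF1, known from macrophages, had 215 and 273 counts in LGR5-high of pigs 88R and 95R and 42 and 54 in LGR5-negative (log2 fold change 2.15, edgeR adjusted p = 0.00163). CD247, the zeta chain of the T cell receptor, had 370 and 367 counts against 117 and 104 (log2 fold change 1.54, adjusted p = 0.00154), while CD3D, CD3E and CD3G had at most 4 in any library. ITGAL, an integrin chain of lymphocytes, had 130 and 83 counts against 12 and 16 (log2 fold change 2.72, adjusted p = 0.00259), and its partner chain ITGB2, chosen after its values were seen, had 41 and 41 against 31 and 43 (log2 fold change -0.05, adjusted p = 0.916). CD79B of the B cell receptor had 63 and 39 counts against 8 and 6 (log2 fold change 2.64, adjusted p = 0.00594) and passed the filter on low counts only through LGR5-high, and its partner CD79A had 90 and 67 against 139 and 130 (log2 fold change -0.98, adjusted p = 0.0232, or 0.0563, 0.0687 and 0.132 without the LGR5-high library of pig 88R, the LGR5-negative library of pig 88R and the LGR5-high library of pig 95R). AIF1, CD247, ITGAL and CD79B lost their calls under Student's t-test alone among the alternatives. PTPN6, a phosphatase of blood cells and epithelia, had 290 and 360 counts against 142 and 189 (log2 fold change 0.78, adjusted p = 0.0307, or 0.161 without the LGR5-high library of pig 95R and 0.0997 without the LGR5-negative library of pig 88R). ITGAM, the alpha chain of the myeloid integrin Mac-1, differed by animal and was chosen after its values were seen. It had 5 counts in both libraries of pig 88R, and 219 in LGR5-high and 274 in LGR5-negative of pig 95R (log2 fold change -0.46, adjusted p = 0.843). Which cells gave these counts was not tested.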
